A study of Mus musculus with 6 samples.

Results

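Monocyte-derived macrophages of mouse brain tumours were taken as the CD45+ barcodes that carried the markers of blood monocytes more strongly than those of resident brain macrophages. A barcode was a member when it held at least 5 unique molecular identifiers (UMIs) of Ms4a4c, Plac8, Lyz1, Ly6i and Ly6c2 together, more than its UMIs of 6 microglial genes (Tmem119, Olfml3, Gpr34, Crybb1, Golm1, Slc2a5) and more than those of 5 border macrophage genes (Mrc1, Pf4, Cbr2, Cd163, Lyve1). It could hold at most 2 UMIs of 5 dendritic cell genes (Cd209a, Clec4b1, Ccl17, Olfm1, Flt3) and at most 1 UMI of 6 lymphoid genes (Cd3d, Cd3e, Cd3g, Trac, Nkg7, Cd79a). The rule kept 901 of the 17089 barcodes that passed the quality filters. The members were thus chosen by their UMIs of these marker genes, and those values are given below as a description with no test.

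Circulating monocytes come in a classical form, marked in the mouse by high Ly6C, and a non-classical form that patrols the vessel wall and carries Ace, Treml4 and Cd300e. Classical monocytes that enter an inflamed tissue or a tumour lose Ly6C and gain complement component C1q, scavenger receptors and MHC class II as they become macrophages. Interferon gamma from T and NK cells drives monocytes and macrophages to make guanylate-binding proteins, the chemokine Cxcl9 and the antigen presentation machinery through transcription factors that include IRF1.

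The series compared immune cells of early gliomas, brain tumours, that lacked Trp53 and Rbpj (Rbpj-deleted tumours), immune cells of gliomas that lacked Trp53 with Rbpj intact (control tumours), and immune cells of healthy brain, wild type for both genes. Rbpj encodes the DNA-binding factor of the Notch pathway, and Trp53 a tumour suppressor. Each group had 2 droplet libraries, replicates 1 and 2. Tumours were found by a green fluorescent protein reporter that marks Cre-recombined cells and were cut out under the microscope, and CD45+ cells were sorted. The series' design describes pools of 9 Rbpj-deleted tumours, 15 control tumours and 9 healthy brains, whereas the protocol describes 1 mouse in each well, and the animals behind each library are not stated, so p-values measure the spread between libraries, which may be technical. The genotype describes the tumour: Rbpj was at 53.5 and 42.0 CPM (UMIs of a gene scaled to a common total of the library's members) in the members of the Rbpj-deleted libraries, 39.2 and 42.9 CPM in those of the control libraries and 23.2 and 24.7 CPM in those of the healthy libraries, and this does not test the deletion in tumour cells. The drivers of the Cre and the ages of the mice are not given in the sources used here.

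One split between libraries touches the results. Healthy library 1 resembled the control libraries, and healthy library 2 the Rbpj-deleted libraries, in a set of genes of the MHC and a few other loci. The split runs along the genotype of the tumours, so for those genes the genotype and the split cannot be told apart. For each difference between the tumour groups the healthy libraries are therefore given one by one.

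The members numbered 164 and 497 in the Rbpj-deleted libraries, 138 and 20 in the control libraries and 50 and 32 in the healthy libraries. They held 1887618 and 4688376 UMIs in the Rbpj-deleted libraries, 1964432 and 326294 in the control libraries and 344629 and 283456 in the healthy libraries. The median depth per member was 9073 and 7337 UMIs in the Rbpj-deleted libraries, 13118 and 12925 in the control libraries and 6425.5 and 7634.5 in the healthy libraries. Control library 2 and both healthy libraries thus rest on the fewest cells and molecules. In all, 413 of the deposited barcodes had a sequence that occurred in more than 1 library, and 5 of them were members.

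Plac8, a small cysteine-rich protein of monocytes, was the marker found in most members. Its level was 2132 and 3039 CPM in the Rbpj-deleted libraries, 3744 and 3331 CPM in the control libraries and 4173 and 4082 CPM in the healthy libraries. Ly6c2, the Ly6C antigen of classical monocytes, was at 424 and 891 CPM in the Rbpj-deleted libraries, 1838 and 1615 CPM in the control libraries and 409 and 596 CPM in the healthy libraries. The summed marker count had a median of 29 and 45 UMIs in the Rbpj-deleted libraries, 103.5 and 72 in the control libraries and 30 and 31.5 in the healthy libraries. Just inside the threshold, at exactly 5 UMIs, lay 9 and 5 members of the Rbpj-deleted libraries, 5 and 1 of the control libraries and none of the healthy libraries. Just outside, at 4 UMIs with the other conditions met, lay 5 and 10 barcodes of the Rbpj-deleted libraries, 3 and 1 of the control libraries and 3 and 0 of the healthy libraries.

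Monocyte genes that the rule did not use were found in the members of every library. Ccr2, the receptor that draws monocytes out of the marrow, was at 41.3 and 114 CPM in the Rbpj-deleted libraries, 89.6 and 85.8 CPM in the control libraries and 31.9 and 113 CPM in the healthy libraries. Fn1, which encodes fibronectin, was at 89.0 and 293 CPM in the Rbpj-deleted libraries, 55.5 and 110 CPM in the control libraries and 221 and 522 CPM in the healthy libraries. Csf1r, the receptor for the macrophage growth factor, ranged from 638 to 1599 CPM over the 6 libraries. Chil3, a lectin of inflammatory monocytes, Hp (haptoglobin) and Clec4e (a sensor of mycobacterial lipid) were among the genes with the highest ratio of the members' level to that of the other barcodes. Vcan, which encodes a proteoglycan of classical monocytes, was low in the tumours, at 17.0 and 11.9 CPM in the Rbpj-deleted libraries and 1.02 and 6.13 CPM in the control libraries, against 0 and 81.1 CPM in the healthy libraries.

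The healthy members had the lowest shares of barcodes rich in C1q and the highest shares with Ace. After each cell was thinned to 3000 UMIs, 10 or more UMIs of C1q (C1qa, C1qb and C1qc together) were found in 69.4% and 55.1% of the members of the Rbpj-deleted libraries, 39.4% and 63.2% of those of the control libraries and 29.5% and 20.7% of those of the healthy libraries. No lymphoid barcode of any library, none of which should make C1q, reached 10 UMIs at that depth. With a cut of 1 UMI control library 1 did not stand above healthy brain. C1q was found in 60.6% of its members, against 84.1% and 69.0% of those of the healthy libraries. The median was 2 UMIs in control library 1 and 2 and 1 in the healthy libraries. At that cut a C1q UMI was also found in 28.7% of the lymphoid barcodes of control library 1. In the healthy libraries it was found in 71.4% and 73.1% of them, near the shares of the healthy members. The background thus differed between these libraries, so the shares at 1 UMI cannot rank control library 1 against healthy brain. Ace, a gene of non-classical monocytes, was found in 6.12% and 4.14% of the members of the Rbpj-deleted libraries, 9.09% and 15.8% of those of the control libraries and 54.5% and 48.3% of those of the healthy libraries. Lymphoid barcodes, which should lack it, had an Ace UMI in 0% of cells in the tumour libraries and in 7.14% and 3.85% in the healthy libraries. Thinning left 147 and 483 members of the Rbpj-deleted libraries, 132 and 19 of the control libraries and 44 and 29 of the healthy libraries. Those of healthy brain, for which the data go against the name of macrophage, are called healthy members below.

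Other cell types were looked for among the members. At least 3 UMIs of plasmacytoid dendritic cell genes were found in 6 and 18 members of the Rbpj-deleted libraries, 19 and 0 of the control libraries and 8 and 0 of the healthy libraries. A single member of healthy library 2 held 2786 UMIs of neutrophil genes, and the summed level of 12 neutrophil genes was 339 and 503 CPM in the Rbpj-deleted libraries, 111 and 169 CPM in the control libraries and 142 and 40094 CPM in the healthy libraries. At least 10 UMIs of endothelial genes (Cldn5, Slco1a4, Flt1, Kdr) were found in 3 and 3 members of the Rbpj-deleted libraries, none of the control libraries and 7 and 1 of the healthy libraries. Of 10 B cell genes Fcer2a, Ms4a1 and Pax5 were at 0 in all members and the other 7 were detected, with a sum of 271 and 222 CPM in the Rbpj-deleted libraries, 280 and 172 CPM in the control libraries and 467 and 222 CPM in the healthy libraries. No doublet caller was run on the members. Each count of genes below was also computed without the members that held neutrophil, plasmacytoid dendritic or endothelial transcripts, which left 154 and 472 members in the Rbpj-deleted libraries, 119 and 20 in the control libraries and 35 and 30 in the healthy libraries.

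The share of members among the CD45+ barcodes was higher in all tumour libraries than in the healthy ones, but the 2 tumour groups overlapped. Members made up 5.43% (95% exact binomial interval 4.65 to 6.30) and 21.3% (19.7 to 23.1) of the barcodes of the Rbpj-deleted libraries. They made up 11.3% (9.56 to 13.2) and 2.65% (1.62 to 4.06) of the control libraries, and 0.696% (0.517 to 0.917) and 1.24% (0.850 to 1.75) of the healthy libraries. The highest and second lowest tumour share both belonged to Rbpj-deleted tumours, so libraries of 1 genotype differed by more than the genotypes did. The mean was 13.4 ± 11.2% in Rbpj-deleted tumours, 6.96 ± 6.11% in control tumours and 0.968 ± 0.385% in healthy brain (SD, n = 2 each). The difference between the tumour groups was 6.42 percentage points (two-sided exact permutation test, p = 0.667, where the smallest p that 2 against 2 allows is 0.333). Without Rbpj-deleted library 2 it was -1.53 points and without Rbpj-deleted library 1 it was 14.4 points, so no direction could be given. Intervals cover counting error only, and a share of sorted barcodes cannot tell more monocytes from fewer cells of other types.

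**Figure D1:**
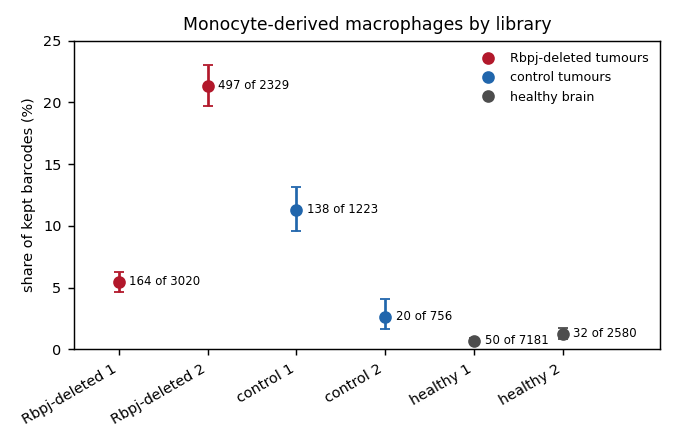
Share of members among the kept CD45+ barcodes of each library (percent, vertical axis) for Rbpj-deleted tumours, control tumours and healthy brain, with 95% exact binomial intervals as bars. The 2 tumour groups overlap, with 21.3% in Rbpj-deleted library 2 and 2.65% in control library 2 as the extremes, and both healthy libraries lie lowest.

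In control tumours against healthy brain the members carried more interferon-induced, antigen presentation and inflammatory transcripts and fewer non-classical monocyte transcripts. UMIs were summed over the members of each library and tested with edgeR's quasi-likelihood test. Of 8353 genes tested, 372 passed an adjusted p of 0.05 (4.45%), of which 220 were higher (2.63%) and 152 lower (1.82%) in control tumours. In Rbpj-deleted tumours against the same healthy libraries, 403 genes passed (4.82%), 223 higher (2.67%) and 180 lower (2.15%). The 2 comparisons share the healthy libraries, so their values are given side by side. Scaled by library size alone, the calls were 154 higher and 240 lower for control tumours and 160 higher and 259 lower for Rbpj-deleted tumours, and the median log2 difference of all genes moved to -0.26 and -0.23, against -0.01 and 0.01 with the main scaling. Without the members that held transcripts of other cell types the calls were 411 for control tumours, with 266 of the 319 calls still tested among them, and 463 for Rbpj-deleted tumours, with 315 of 365. The number of calls for control tumours was 170 without control library 1 and 209 without healthy library 1, and that for Rbpj-deleted tumours was 180 without healthy library 1, 240 without Rbpj-deleted library 1 and 257 without Rbpj-deleted library 2.

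Genes of the interferon gamma response were higher in the members of both tumour groups than in healthy members. Of 27 measured members 18 were higher in the control tumours and 15 in the Rbpj-deleted tumours than in healthy brain, and none was lower. Their median log2 difference was 3.48 for control tumours and 2.94 for Rbpj-deleted tumours (2.80 with genes at 0 in a group set to their bound), against medians of -0.01 and 0.01 over all genes. For 25 of 27 genes both control libraries lay above both healthy ones, and for 23 of 27 both Rbpj-deleted libraries did, where the same held for 16.4% and 18.5% of all genes tested.

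Cxcl9, a chemokine that attracts activated T cells through CXCR3, was at 2422 and 2316 CPM in the Rbpj-deleted libraries and 3565 and 3212 CPM in the control libraries, against 0 and 24.7 CPM in the healthy libraries. All 4 tumour libraries lay far above both healthy ones. The log2 difference from healthy was 8.42 ± 0.85 (SE) for control tumours (edgeR, adjusted p = 0.00203) and 7.89 ± 0.84 for Rbpj-deleted tumours (adjusted p = 0.00296). It missed the threshold when 1 library was left out: adjusted p = 0.0502 without control library 1, 0.0566 without Rbpj-deleted library 1 and 0.054 without Rbpj-deleted library 2. At 3000 UMIs per cell, Cxcl9 was found in 64.6% (56.3 to 72.3) and 51.8% (47.2 to 56.3) of the members of the Rbpj-deleted libraries, 63.6% (54.8 to 71.8) and 52.6% (28.9 to 75.6) of those of the control libraries and 0% and 3.45% of those of the healthy libraries. Lymphoid barcodes, which should lack it, had a Cxcl9 UMI in 0% and 13.3% of cells in the Rbpj-deleted libraries, 3.48% and 7.41% in the control libraries and 0% and 0% in the healthy libraries. Their median depth before thinning was lower, between 2843.5 and 7013 UMIs, and the unthinned share of members with Cxcl9 was 74.4% and 60.0% in the Rbpj-deleted libraries and 70.3% and 50% in the control libraries.

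Gbp5, a guanylate-binding protein that attacks intracellular pathogens, was at 155 and 158 CPM in the Rbpj-deleted libraries, 223 and 267 CPM in the control libraries and 14.5 and 14.1 CPM in the healthy libraries. The libraries of each group lay close together, with no overlap between tumour and healthy. Its log2 difference from healthy was 4.32 ± 0.35 for control tumours (edgeR, adjusted p = 0.00024) and 3.68 ± 0.35 for Rbpj-deleted tumours (adjusted p = 0.000475). Irf1, a transcription factor induced by interferon gamma, was at 68.9 and 66.6 CPM in the Rbpj-deleted libraries, 83.5 and 91.9 CPM in the control libraries and 8.71 and 10.6 CPM in the healthy libraries. It rose by 3.41 ± 0.40 on the log2 scale in control tumours (edgeR, adjusted p = 0.00134) and by 3.04 in Rbpj-deleted tumours (adjusted p = 0.00275). Batf2, an interferon-induced factor of macrophages, was at 33.4 and 39.9 CPM in the Rbpj-deleted libraries, 65.7 and 70.5 CPM in the control libraries and 0 in both healthy libraries. That is at least 7.96-fold higher in Rbpj-deleted tumours and at least 13.9-fold higher in control tumours, with 3 UMIs over the healthy libraries as the floor. Acod1, the enzyme that makes itaconate, was at 119 and 141 CPM in the Rbpj-deleted libraries and 132 and 221 CPM in the control libraries, against 2.90 and 0 CPM in the healthy libraries.

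**Figure D2:**
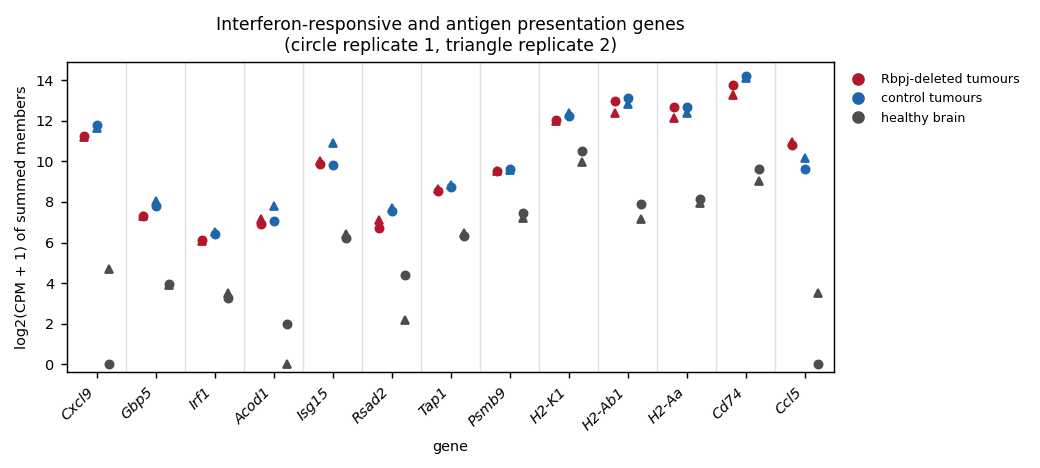
Level of 13 interferon-induced and antigen presentation genes in the members of each library (log2(CPM + 1)), with Rbpj-deleted, control and healthy libraries as points. For Gbp5 the tumour points lie between 155 and 267 CPM and the healthy points near 14 CPM.

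The promoters of 3 interferon-induced genes that rose show the sequences through which such genes are known to be switched on. The gamma-activated sequence (GAS), known from genes that interferon gamma induces, was searched as TTCNNNGAA, and the interferon-stimulated response element (ISRE), bound by IRF factors, as GAAA repeated after 2 bases of any kind, on both strands, in 250 bases before to 50 bases after the start given by RefSeq (GRCm38.p6). Of the 34 genes of the interferon gamma list 21 matched an entry, of which 9 held a GAS (42.9%) and 13 an ISRE (61.9%), against 9.55% and 3.99% of all 27025 genes with a promoter of that length. A gene counted when any of its promoters held the motif. Of the 26 matched genes of the 34 in the type I interferon list, 17 held an ISRE (65.4%) and 4 a GAS (15.4%). The 3 promoters shown are Gbp5 (chr3:142496684-142496983, plus strand), Irf1 (chr11:53769764-53770063, plus strand) and Rsad2 (chr12:26456403-26456702, minus strand), each given 5′ to 3′ in the gene's direction with the matched motifs in capitals. A match is a description of the letters and not evidence of binding.
Gbp5: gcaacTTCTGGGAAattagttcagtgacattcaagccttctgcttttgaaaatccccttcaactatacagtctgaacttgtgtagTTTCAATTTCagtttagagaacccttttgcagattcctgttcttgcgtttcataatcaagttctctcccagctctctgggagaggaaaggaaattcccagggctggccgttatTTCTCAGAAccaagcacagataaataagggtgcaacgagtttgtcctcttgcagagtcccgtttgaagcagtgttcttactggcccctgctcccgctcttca
Irf1: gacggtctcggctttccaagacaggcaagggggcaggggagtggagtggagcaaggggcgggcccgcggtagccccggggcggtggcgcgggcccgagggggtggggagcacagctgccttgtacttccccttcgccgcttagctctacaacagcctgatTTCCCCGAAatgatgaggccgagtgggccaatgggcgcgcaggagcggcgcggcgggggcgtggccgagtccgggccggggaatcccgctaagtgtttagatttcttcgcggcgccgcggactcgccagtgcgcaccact
Rsad2: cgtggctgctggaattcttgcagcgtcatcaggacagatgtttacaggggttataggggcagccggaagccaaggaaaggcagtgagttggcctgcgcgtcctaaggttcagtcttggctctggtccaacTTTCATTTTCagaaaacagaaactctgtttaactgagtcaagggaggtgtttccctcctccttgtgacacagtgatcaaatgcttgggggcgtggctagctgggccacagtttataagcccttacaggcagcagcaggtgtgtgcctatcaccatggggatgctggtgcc
In Gbp5 the GAS matches lay 245 to 237 and 52 to 44 bases before the start and the ISRE 165 to 156 bases before it. In Irf1 the GAS lay 90 to 82 bases before the start, and in Rsad2 the ISRE lay 120 to 111 bases before it.

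Genes of the type I interferon response were higher as well. All 34 measured members had a positive difference in both comparisons. In the control tumours 10 passed and in the Rbpj-deleted tumours 13, where 2.63% and 2.67% of all genes were higher. The median log2 differences were 1.71 and 1.86. Isg15, a ubiquitin-like modifier, was at 944 and 1037 CPM in the Rbpj-deleted libraries, 914 and 1928 CPM in the control libraries and 72.5 and 84.7 CPM in the healthy libraries. It rose by 4.39 ± 0.43 on the log2 scale in control tumours (edgeR, adjusted p = 0.000572) and by 3.88 in Rbpj-deleted tumours (adjusted p = 0.000927). Rsad2, whose product viperin blocks viral replication, was at 105 and 135 CPM in the Rbpj-deleted libraries, 187 and 208 CPM in the control libraries and 20.3 and 3.53 CPM in the healthy libraries, and passed in both comparisons. Irf7, the factor that amplifies type I interferon, rose by 2.04 in control tumours and by 2.43 in Rbpj-deleted tumours (edgeR, adjusted p = 0.00829 and 0.0034).

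Most measured genes of MHC class I presentation were higher in the tumour members. Of 17 measured members 14 were higher in the control tumours and 12 in the Rbpj-deleted tumours than in healthy brain. The same held for 2.63% and 2.67% of all genes. The median log2 differences of the list were 1.96 and 1.80. Tap1, which pumps peptides into the endoplasmic reticulum, was at 377 and 399 CPM in the Rbpj-deleted libraries, 431 and 460 CPM in the control libraries and 78.4 and 88.2 CPM in the healthy libraries. Psmb9, a subunit of the immunoproteasome, was at 726 and 742 CPM in the Rbpj-deleted libraries, 799 and 772 CPM in the control libraries and 177 and 148 CPM in the healthy libraries. For both genes the 4 tumour libraries lay within a narrow band, well above the healthy pair. Tap1 rose by 2.65 ± 0.30 in control tumours (edgeR, adjusted p = 0.00118) and by 2.44 in Rbpj-deleted tumours (adjusted p = 0.00161).

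MHC class II genes showed some of the largest rises over healthy brain. Of 10 measured members 7 were higher in each tumour group: H2-Ab1, H2-Aa, Cd74, H2-DMb1, H2-DMa, Ifi30 and Ctss, with list medians of 2.44 for control tumours and 3.62 for Rbpj-deleted tumours on the log2 scale. Cd74, which encodes the invariant chain of class II assembly, was at 13838 and 9720 CPM in the Rbpj-deleted libraries, 18718 and 17901 CPM in the control libraries and 795 and 522 CPM in the healthy libraries. It rose by 5.04 ± 0.36 in control tumours (edgeR, adjusted p = 0.000146) and by 4.40 ± 0.35 in Rbpj-deleted tumours (adjusted p = 0.000154). The class II beta chain gene H2-Ab1 was at 7993 and 5343 CPM in the Rbpj-deleted libraries, 8873 and 7239 CPM in the control libraries and 235 and 141 CPM in the healthy libraries. The class II alpha chain gene H2-Aa was at 6586 and 4448 CPM in the Rbpj-deleted libraries, 6606 and 5412 CPM in the control libraries and 279 and 247 CPM in the healthy libraries. With the barcodes of other cell types left out, the log2 difference of H2-Aa was 5.61 in the control tumours and 5.43 in the Rbpj-deleted tumours (edgeR, adjusted p = 0.181 and 0.177). At 3000 UMIs per cell H2-Aa was found in 82.3% and 79.3% of the members of the Rbpj-deleted libraries, 80.3% and 78.9% of those of the control libraries and 9.09% and 6.90% of those of the healthy libraries. Lymphoid barcodes held an H2-Aa UMI in 33.3% and 10.0% of cells in the Rbpj-deleted libraries, 6.96% and 0% in the control libraries and 21.4% and 34.6% in the healthy libraries. The lymphoid barcodes of healthy brain are no measure of free class II RNA, because they carried the 10 genes of B cells, which make class II themselves, at 11700 and 14644 CPM, while those of the Rbpj-deleted libraries had 1204 and 2303 CPM and those of the control libraries 696 and 1346 CPM.

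Chemokines and inflammatory cytokines were higher in part. Of 22 chemokine and receptor genes measured, 7 passed in the control tumours and 6 in the Rbpj-deleted tumours, all higher. Over all genes 2.63% and 2.67% were higher. Without the members that held transcripts of other cells, 6 were higher and 1 lower in control tumours. In Rbpj-deleted tumours 5 were then higher and 1 lower, and the lower gene was Ccl9 in both. Ccl5, which attracts T cells and monocytes, was at 1777 and 1971 CPM in the Rbpj-deleted libraries, 782 and 1162 CPM in the control libraries and 0 and 10.6 CPM in the healthy libraries. Cxcl16, the ligand of CXCR6 on T cells, was at 720 and 730 CPM in the Rbpj-deleted libraries, 382 and 524 CPM in the control libraries and 37.7 and 24.7 CPM in the healthy libraries. The members also carried T and NK transcripts, summed over a 20-gene list that holds Ccl5. That sum was 1846 and 2027 CPM in the Rbpj-deleted libraries and 934 and 1192 CPM in the control libraries. In the healthy libraries it was 154 and 31.8 CPM. Ccl5 itself made up most of the sum in every tumour library, so the sum is no measure of lymphoid RNA apart from Ccl5. The part of lymphoid RNA in the Ccl5 difference was not tested. Among 18 inflammatory genes, 6 rose in the control tumours and 4 in the Rbpj-deleted tumours. Il1b, which encodes interleukin 1 beta, was at 3361 and 2236 CPM in the Rbpj-deleted libraries, 4012 and 1802 CPM in the control libraries and 296 and 307 CPM in the healthy libraries. It rose by 3.51 ± 0.45 in control tumours (edgeR, adjusted p = 0.00213) and by 3.43 in Rbpj-deleted tumours (adjusted p = 0.00283). Tnf rose by 3.65 and 3.48 in control and Rbpj-deleted tumours (edgeR, adjusted p = 0.000572 and 0.00062).

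Several genes outside these groups were also among those with the largest rises. Axl, a receptor through which macrophages take up dying cells, was at 292 and 226 CPM in the Rbpj-deleted libraries, 132 and 156 CPM in the control libraries and 2.90 and 7.06 CPM in the healthy libraries. Il18bp, the secreted inhibitor of interleukin 18, was at 126 and 153 CPM in the Rbpj-deleted libraries, 131 and 138 CPM in the control libraries and 0 and 3.53 CPM in the healthy libraries. Saa3, an acute-phase protein of macrophages, was at 306 and 692 CPM in the Rbpj-deleted libraries, 792 and 383 CPM in the control libraries and 5.80 and 0 CPM in the healthy libraries. For all 3 genes the tumour and healthy libraries did not overlap. Vegfa, the vascular growth factor, was at 66.2 and 60.1 CPM in the Rbpj-deleted libraries, 55.0 and 61.3 CPM in the control libraries and 2.90 and 0 CPM in the healthy libraries.

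Non-classical monocyte genes were lower in both tumour groups. Of 14 measured members 9 fell in the control tumours and 9 in the Rbpj-deleted tumours, with median log2 differences of -2.17 and -2.19. For all 14 genes both tumour libraries of a group lay below both healthy ones, where the same held for 32.5% of all genes in the control tumours and 34.3% in the Rbpj-deleted tumours. Ace, the angiotensin-converting enzyme, was at 27.0 and 21.3 CPM in the Rbpj-deleted libraries, 42.8 and 64.4 CPM in the control libraries and 383 and 346 CPM in the healthy libraries. It fell by 2.61 ± 0.30 on the log2 scale in control tumours (edgeR, adjusted p = 0.0012) and by 3.70 ± 0.29 in Rbpj-deleted tumours (adjusted p = 0.000154). Itgal, the integrin subunit with which monocytes adhere to vessels, was at 184 and 185 CPM in the Rbpj-deleted libraries, 183 and 193 CPM in the control libraries and 679 and 603 CPM in the healthy libraries. The 4 tumour libraries lay close together, far below the healthy pair. Cd300e, an activating receptor of monocytes, was at 7.42 and 6.19 CPM in the Rbpj-deleted libraries, 14.3 and 6.13 CPM in the control libraries and 102 and 102 CPM in the healthy libraries. Treml4, a receptor of non-classical monocytes, was found in 12.2% and 14.5% of the members of the Rbpj-deleted libraries, 13.6% and 10.5% of those of the control libraries and 50% and 44.8% of those of the healthy libraries at 3000 UMIs, and in no lymphoid barcode. In these summed counts, fewer cells of a type and less RNA per cell cannot be told apart. The fall held without the members that carried transcripts of other cells, with 10 of 14 lower in control tumours and 11 of 14 in Rbpj-deleted tumours.

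The other falls included endothelial genes, which moved with the barcodes that held endothelial transcripts. Of 7 endothelial genes 6 were lower in the control tumours and 4 in the Rbpj-deleted tumours. The sum of the list was 815 and 663 CPM in the Rbpj-deleted libraries, 404 and 423 CPM in the control libraries and 6636 and 1817 CPM in the healthy libraries. Without the members that held transcripts of other cells it was 435 and 489 CPM in the Rbpj-deleted libraries, 398 and 423 CPM in the control libraries and 440 and 338 CPM in the healthy libraries, and none of the 3 genes that could still be tested against healthy brain passed. The largest falls among all genes (Cldn5, Slco1a4 and Tek among them, genes of brain endothelium) are for that reason not described further. Ddit4, a stress-induced inhibitor of growth signalling, was at 15.9 and 22.2 CPM in the Rbpj-deleted libraries, 12.7 and 21.5 CPM in the control libraries and 226 and 173 CPM in the healthy libraries, and passed in both comparisons with and without those members.

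**Figure D3:**
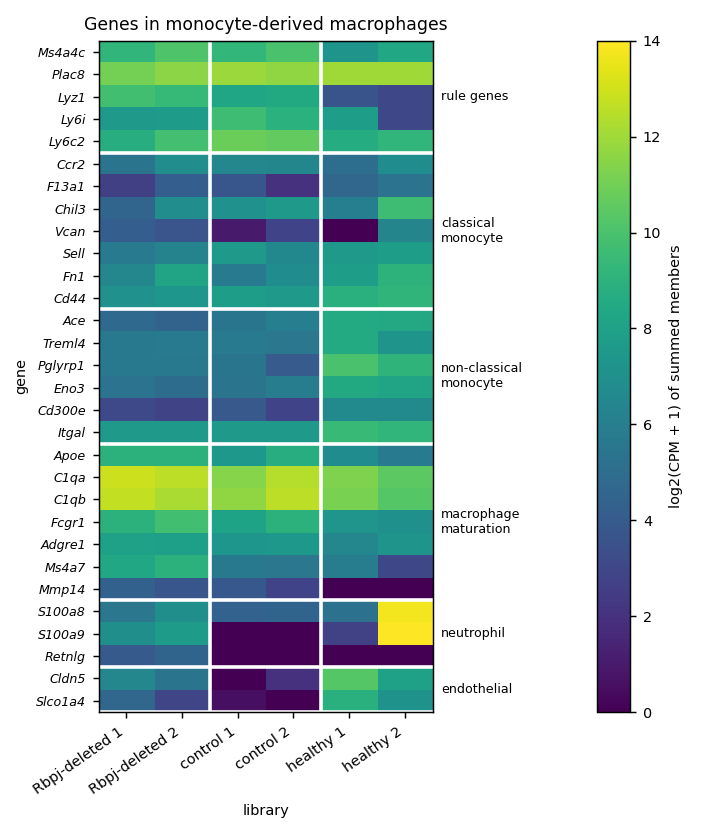
Level of each gene in the members of each library, drawn as log2(CPM + 1) in colour, for the rule's genes, classical and non-classical monocyte genes, macrophage maturation genes, neutrophil genes and endothelial genes. Non-classical genes such as Ace lie high in both healthy libraries, and neutrophil genes lie high in healthy library 2, where 1 member held 2786 neutrophil UMIs.

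Part of the macrophage maturation genes were higher than in healthy brain. Of 22 measured members 10 passed in Rbpj-deleted tumours (Fcgr1, Apoe, Ms4a7, C1qa, C1qb, Fabp5, C1qc, Mmp14 and Adgre1 among them) and 3 in control tumours (Apoe, C1qb and Fcgr1), with median log2 differences of 1.25 and 0.65. Among all genes 2.67% were higher in Rbpj-deleted tumours and 2.63% in control tumours. Without the members that held transcripts of other cells, 9 passed in Rbpj-deleted tumours and none in control tumours, so the 3 calls for control tumours did not hold without those members. C1qa was at 7922 and 6219 CPM in the Rbpj-deleted libraries, 2794 and 5636 CPM in the control libraries and 2495 and 1408 CPM in the healthy libraries. Fcgr1, the high-affinity receptor for IgG, was at 503 and 857 CPM in the Rbpj-deleted libraries, 275 and 515 CPM in the control libraries and 157 and 131 CPM in the healthy libraries. For both genes the Rbpj-deleted libraries lay above both healthy ones. Their calls in Rbpj-deleted tumours rest on the healthy libraries: the adjusted p was 0.0685 for C1qa without healthy library 2 and 0.0591 for Fcgr1 without healthy library 1 (edgeR). The counts of 10 and 3 come from separate tests, and the tumour groups are compared directly next. Of 22 classical monocyte genes, 1 was higher in control tumours (Clec4e), and 4 were lower in Rbpj-deleted tumours (Itga4, Cd44, Ifitm6 and S100a4). For all genes the share higher in control tumours was 2.63%, and the share lower in Rbpj-deleted tumours was 2.15%. Without the members that held transcripts of other cells, none was higher and 2 were lower in control tumours (Cd44 and Itga4), and 1 was higher (Tgfbi) and 5 were lower in Rbpj-deleted tumours. The tumour members also carried microglial transcripts, and the sum of 12 microglial genes was 17848 and 12971 CPM in the Rbpj-deleted libraries, 5328 and 21910 CPM in the control libraries and 25764 and 18077 CPM in the healthy libraries, whose part in the C1q and Apoe values was not tested.

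Rbpj-deleted tumours against control tumours gave few calls. Of 8781 genes tested over the 4 tumour libraries, 16 passed (0.182%), 11 higher (0.125%) and 5 lower (0.0569%), while 608 had an unadjusted p under 0.05. DESeq2 called 54 genes, the 16 among them. With 2 residual degrees of freedom the count was unsteady: it was 157 without Rbpj-deleted library 1, 102 without Rbpj-deleted library 2, 137 without control library 1 and 457 without control library 2, and all 16 were among the calls each time. With the library split as a batch term over the 6 libraries no gene passed, and with all 6 libraries in 1 fit 3 passed. Without the members that held transcripts of other cells 19 genes passed, with all 15 of the 16 that were still tested among them.

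Among the 16 calls, 12 had healthy library 2 on the side of the Rbpj-deleted libraries by at least 2-fold over healthy library 1 in the same direction. Over all genes tested, the healthy libraries were at least 2-fold apart in either direction for 28.5%. The 12 include S100a9, for which healthy library 2 lay 11.22 above healthy library 1 in log2(CPM + 1). In healthy library 2 a single member held up to 2786 UMIs of neutrophil genes, so S100a9 is no measure of the split. H2-Eb1, an MHC class II beta chain, was at 8633 and 5864 CPM in the Rbpj-deleted libraries, 181 and 101 CPM in the control libraries and 2.90 and 173 CPM in the healthy libraries. H2-Aa, the class II alpha chain that pairs with H2-Ab1, was at 6586 and 4448 CPM in the Rbpj-deleted libraries and 6606 and 5412 CPM in the control libraries. The log2 difference of H2-Eb1 was 5.61 ± 0.41 (edgeR, adjusted p = 0.00225) and that of H2-Aa -0.15 ± 0.29 (adjusted p = 0.981). The neighbouring H2-Ea-ps was at 8066 and 5645 CPM in the Rbpj-deleted libraries, 471 and 343 CPM in the control libraries and 8.71 and 229 CPM in the healthy libraries. H2-Ea-ps was called too, with a log2 difference of 4.04 between the tumour groups. With the library split as a batch term, H2-Eb1 had a log2 difference of -0.42 and H2-Ea-ps one of -0.85. Whether the tumour genotype or the split sets these genes cannot be told apart.

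H2-Eb1 is shown with its promoter because it is the most abundant of the 16 calls. The CCAAT box, a site for the factor NF-Y that class II genes share, was searched as CCAAT on both strands and was found in 7 of 9 matched class II genes (77.8%), against 41.1% of all genes with a promoter. The sequence covers chr17:34305617-34305916 (GRCm38.p6, plus strand, RefSeq), with the boxes in capitals. It is the reference sequence, and not that of the mice studied.
H2-Eb1: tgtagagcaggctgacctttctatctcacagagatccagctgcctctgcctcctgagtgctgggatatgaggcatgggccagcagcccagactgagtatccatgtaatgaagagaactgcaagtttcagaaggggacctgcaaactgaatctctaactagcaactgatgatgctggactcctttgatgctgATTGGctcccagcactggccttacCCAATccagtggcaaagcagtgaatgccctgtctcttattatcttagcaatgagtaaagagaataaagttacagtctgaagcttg
The boxes lay 59 to 55 and 35 to 31 bases before the start. Among the 9 called genes that matched a promoter, none held a GAS, 3 an ISRE, 6 a CCAAT box and 2 the RBPJ motif TGGGAA (22.2%), which 28.3% of all genes with a promoter hold.

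Several of the other calls of this kind are members of gene families whose 31-base words are shared, so that the reads may be split between copies. Tpm3-rs7 was at 340 and 433 CPM in the Rbpj-deleted libraries, 23.4 and 15.3 CPM in the control libraries and 34.8 and 430 CPM in the healthy libraries, and 78.6% of its words are shared. Its relative Tpm3, a tropomyosin, went the other way, with 65.7 and 76.2 CPM in the Rbpj-deleted libraries, 547 and 481 CPM in the control libraries and 470 and 95.3 CPM in the healthy libraries. In both genes healthy library 2 resembled the Rbpj-deleted libraries. H2-T22, a non-classical class I gene, was at 192 and 164 CPM in the Rbpj-deleted libraries, 0 and 3.07 CPM in the control libraries and 0 and 56.5 CPM in the healthy libraries, with 51.0% of words shared. Trim12a, of the TRIM family of antiviral proteins, was at 48.7 and 55.7 CPM in the Rbpj-deleted libraries, 0 in both control libraries and 0 and 31.8 CPM in the healthy libraries, with 15.7% of words shared. Jaml, an adhesion molecule of leukocytes that shares only 0.936% of its words, was at 37.6 and 44.6 CPM in the Rbpj-deleted libraries, 176 and 159 CPM in the control libraries and 139 and 31.8 CPM in the healthy libraries. Of 15 calls that could also be tested in the microglia of the same libraries, 11 passed there too, where 88 of 9876 genes passed in all.

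Ms4a7, Cd72, H2-K2 and Atp5l were the 4 calls that did not follow the library split. Ms4a7, a membrane protein of macrophages outside the resident microglia, was at 318 and 513 CPM in the Rbpj-deleted libraries, 50.4 and 46.0 CPM in the control libraries and 58.0 and 7.06 CPM in the healthy libraries. Both Rbpj-deleted libraries lay well above the other 4. The log2 difference was 3.07 ± 0.34 (edgeR, adjusted p = 0.00715), and it was 3.15 without the members that held transcripts of other cells (adjusted p = 0.00359). At 3000 UMIs per cell Ms4a7 was found in 40.1% (32.1 to 48.5) and 48.9% (44.3 to 53.4) of the members of the Rbpj-deleted libraries, 3.79% (1.24 to 8.62) and 10.5% (1.30 to 33.1) of those of the control libraries, and 6.82% and 3.45% of those of the healthy libraries. Unthinned the shares were 56.1% and 60.4% in the Rbpj-deleted libraries and 10.9% and 15.0% in the control libraries, and lymphoid barcodes had a UMI in at most 4.17% of cells at 3000 UMIs. With all 6 libraries in 1 fit its adjusted p was 0.234, and with the split as a batch term it was 0.0981 with a log2 difference of 5.91. Ms4a7 is also on the list of 12 border macrophage genes. All 9 measured genes of that list had a positive difference, with a median of 1.05, and only Ms4a7 passed. For 8 of the 9 both Rbpj-deleted libraries lay above both control ones, where this held for 19.7% of all genes. The members were themselves chosen partly by 5 border macrophage genes, so such counts are a description with no test. Of those 5 genes 3 were measured, and all 3 lay above likewise. The part of border macrophage RNA in the Ms4a7 difference was not tested.

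Cd72, an inhibitory receptor best known on B cells, was at 54.0 and 53.1 CPM in the Rbpj-deleted libraries, 3.56 and 6.13 CPM in the control libraries and 2.90 and 3.53 CPM in the healthy libraries. Both healthy values lie at the floor of counting, so they cannot show whether Cd72 follows the library split. The log2 difference was 3.68 ± 0.41 (edgeR, adjusted p = 0.00715) and 3.49 without the members that held transcripts of other cells. The part of B cell RNA, whose summed levels are given above, was not tested. H2-K2, a class I gene of the MHC, was at 507 and 494 CPM in the Rbpj-deleted libraries, 104 and 85.8 CPM in the control libraries and 60.9 and 70.6 CPM in the healthy libraries (log2 difference 2.35 ± 0.27, edgeR, adjusted p = 0.00813). Of its words 16.6% are shared with other genes. Atp5l, a subunit of the mitochondrial ATP synthase, was lower, at 58.3 and 58.2 CPM in the Rbpj-deleted libraries, 203 and 282 CPM in the control libraries and 72.5 and 138 CPM in the healthy libraries. S100a9, a calcium-binding protein of neutrophils and classical monocytes, was at 126 and 214 CPM in the Rbpj-deleted libraries, 0 in both control libraries and 5.80 and 16228 CPM in the healthy libraries. That is at least 144-fold higher in Rbpj-deleted tumours, with a floor of 3 UMIs over the control libraries. It moved with neutrophil transcripts: at least 3 UMIs of neutrophil genes were found in 1 and 5 members of the Rbpj-deleted libraries and in no control member, and without them S100a9 was too low to be tested.

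**Figure D4:**
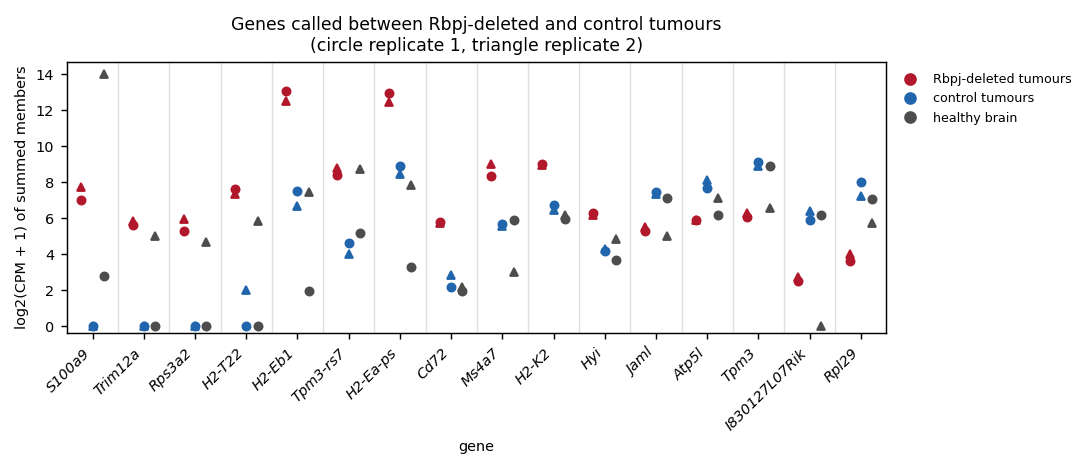
Level of the 16 genes called between Rbpj-deleted and control tumours in the members of each library (log2(CPM + 1)), with Rbpj-deleted, control and healthy libraries as points. For H2-Eb1 healthy library 2 lies at 173 CPM and healthy library 1 at 2.90 CPM, while for Ms4a7 and Cd72 both healthy libraries lie near or below the control libraries.

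Described by lists, the Rbpj contrast had few calls and modest medians against 0.01 over all genes. Of 22 macrophage maturation genes 1 passed (Ms4a7), 21 had a positive difference, and the median was 0.74. For 10 of the 22 both Rbpj-deleted libraries lay above both control ones and for none below, where this held for 19.7% (above) and 16.3% (below) of all genes. Spp1, which encodes osteopontin, was at 185 and 537 CPM in the Rbpj-deleted libraries, 29.5 and 126 CPM in the control libraries and 0 and 17.6 CPM in the healthy libraries, and did not pass (adjusted p = 0.79). C3ar1, the receptor for complement C3a, was at 219 and 238 CPM in the Rbpj-deleted libraries, 78.9 and 73.6 CPM in the control libraries and 43.5 and 35.3 CPM in the healthy libraries (log2 difference 1.55, edgeR, adjusted p = 0.0704).

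None of 29 interferon gamma response genes passed, 3 had a positive difference, and the median was -0.51. For 17 of the 29 both Rbpj-deleted libraries lay below both control ones and for 1 above. Gbp4 was at 25.4 and 31.6 CPM in the Rbpj-deleted libraries and 107 and 79.7 CPM in the control libraries (log2 difference -1.76, edgeR, adjusted p = 0.0704). Il27, a cytokine subunit that restrains T cell responses, was at 23.8 and 21.97 CPM in the Rbpj-deleted libraries and 63.6 and 73.6 CPM in the control libraries (log2 difference -1.58, adjusted p = 0.088). Type I interferon genes had a median of 0.08, with 18 of 34 positive and none called. Of 17 class I genes H2-T22 passed, 3 had a positive difference and the median was -0.33. Of 22 lysosomal genes none passed, 18 were positive and the median was 0.32. Of 20 lipid-handling genes none passed, 13 were positive and the median was 0.62. Sex-linked transcripts also differed: Ddx3y, on the Y chromosome, was at 4.77 and 15.1 CPM in the Rbpj-deleted libraries, 83.5 and 58.2 CPM in the control libraries and 119 and 56.5 CPM in the healthy libraries, and the part of the animals' sex in any difference was not tested.

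Notch pathway genes were looked at because Rbpj is its DNA-binding factor, although the deletion was made in the tumour. Of 22 measured members none passed between the tumour groups, 15 had a positive difference and the median was 0.15. Hes1, a repressor that Notch signalling induces, was at 43.4 and 38.0 CPM in the Rbpj-deleted libraries, 10.7 and 9.19 CPM in the control libraries and 110 and 162 CPM in the healthy libraries. The 3 groups did not overlap, with the control libraries lowest and the healthy ones highest. Its log2 difference between the tumour groups was 1.94 ± 0.35 (edgeR, adjusted p = 0.0954) and rested on 21 and 3 UMIs in the control libraries. Against healthy brain it fell by 3.47 ± 0.40 in control tumours (edgeR, adjusted p = 0.00131) and by 1.53 ± 0.32 in Rbpj-deleted tumours (adjusted p = 0.0239). The second fall missed the threshold when a library was left out, with adjusted p = 0.18 and a log2 difference of -1.06 without healthy library 2, and adjusted p = 0.0639 and 0.108 without Rbpj-deleted library 1 and 2. Against healthy brain, 3 of 25 Notch genes were lower in control tumours (Hes1, Maml3 and Hey1) and 1 in Rbpj-deleted tumours (Hes1). The shares lower over all genes were 1.82% and 2.15%, so the single gene in Rbpj-deleted tumours is near that share. Without the members that held transcripts of other cells, Hes1 and Maml3 were lower in control tumours, with Hey1 no longer called, and Hes1 and Notch2 in Rbpj-deleted tumours.

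The Rbpj contrast in the members was set against the same contrast in the microglia of the same libraries. Microglia were barcodes with at least 5 UMIs of the 6 microglial genes and more of these than of the other sets, 9168 in all. The difference of the 2 contrasts, members minus microglia, passed for 38 of 10013 genes (0.38%), 22 higher (0.22%) and 16 lower (0.16%), with 1119 at an unadjusted p under 0.05. After removal of the members that held transcripts of other cells 19 passed, all among the 38. The count rests on single libraries: 33 genes passed without control library 1, of which 6 were among the 38, and 225, 100 and 88 passed without control library 2, Rbpj-deleted library 1 and Rbpj-deleted library 2.

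Capg, Hpgd and Fgr passed in the microglia and not in the members. Capg, an actin-capping protein of macrophages, was at 79.9 and 141 CPM in Rbpj-deleted microglia and 42.1 and 38.2 CPM in control microglia, while the members had 233 and 502 CPM in the Rbpj-deleted libraries and 614 and 515 CPM in the control libraries. The log2 difference was -0.64 in the members and 1.53 in the microglia, and the difference between the 2 was -2.18 ± 0.24 (edgeR, adjusted p = 0.00202, and 0.0211 without control library 1). Hpgd, which inactivates prostaglandins, was at 42.5 and 59.5 CPM in Rbpj-deleted microglia and 220 and 231 CPM in control microglia, while the members had 38.7 and 29.9 CPM in the Rbpj-deleted libraries and 14.3 and 24.5 CPM in the control libraries. Its contrast differed by 3.09 ± 0.35 (edgeR, adjusted p = 0.00259, and 0.0503 without control library 1). Fgr, a Src-family kinase of myeloid cells, was at 31.1 and 36.2 CPM in Rbpj-deleted microglia and 7.72 and 8.14 CPM in control microglia, while the members had 122 and 147 CPM in the Rbpj-deleted libraries and 153 and 117 CPM in the control libraries. H2-K2 rose in both, by 2.35 in the members and by 4.18 in the microglia.

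For C3ar1 the difference was positive in the members, without passing there, and close to 0 in the microglia. In microglia C3ar1 was at 271 and 259 CPM in the Rbpj-deleted libraries and 280 and 218 CPM in the control libraries, a log2 difference of 0.17 against 1.55 in the members. The contrasts differed by 1.46 ± 0.24 (edgeR, adjusted p = 0.0267, and 0.17 without control library 1). Hes1 in microglia was at 13.5 and 9.37 CPM in the Rbpj-deleted libraries and 18.5 and 16.3 CPM in the control libraries, and its contrasts differed by 2.55 ± 0.42 (edgeR, adjusted p = 0.0267, and 0.208 without control library 1). With the other-cell barcodes left out, the difference was 2.35 for Hes1 (edgeR, adjusted p = 0.0758) and 1.47 for C3ar1 (adjusted p = 0.0463). Of 21 hypoxia and glycolysis genes 3 had a lower contrast in the members than in the microglia, against 0.16% of all genes. They were Slc16a3 (a lactate exporter), Mif (a cytokine) and Pgk1 (a glycolytic enzyme), and the list's median was -0.86 against 0.06 for all genes. In the members alone none of 21 genes of the list passed between the tumour groups, and the median was -0.13. With the other-cell barcodes left out, Slc16a3 and Mif still passed in the difference and Pgk1 did not.

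**Figure D5:**
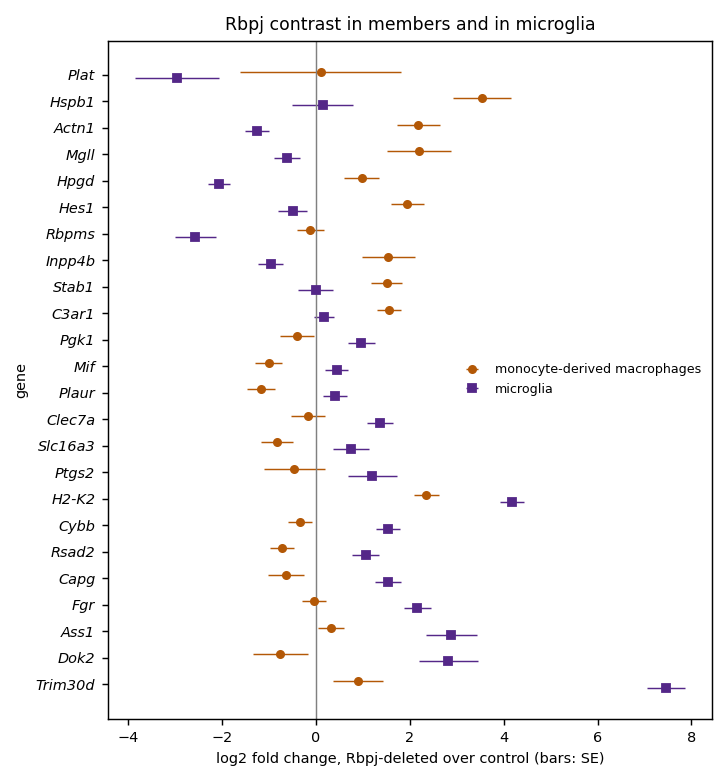
Log2 difference of Rbpj-deleted over control tumours (horizontal axis, with SE) for 24 genes in the members and in the microglia of the same 4 libraries. For C3ar1 the members lie at 1.55 and the microglia at 0.17, and for Capg at -0.64 and 1.53.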

How the data were processed

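Single-cell RNA was captured with the 10x 3′ v3 kit, per the labels' protocols. The authors deposited UMI counts per gene and barcode, made with kallisto 0.46.0 and bustools 0.39.3 on mm10, per the submitters' processing notes; a gene that shares 31-base words with others is uncertain. The deposited counts hold 17362 barcodes in 6 libraries, with 17430763 to 55229031 UMIs per library. Barcodes with under 500 genes or over 10% mitochondrial UMIs (17) and 256 likely index-hopped copies were left out. Member UMIs were summed per library and tested with edgeR 4.0.16 (R 4.3.3, quasi-likelihood, robust, TMM scaling, filterByExpr, Benjamini-Hochberg adjusted p of 0.05). The Rbpj contrast used the 4 tumour libraries, the healthy contrasts all 6, and the difference from microglia a class by genotype term with library as a block. DESeq2 1.42.0, other scalings, filters, barcode rules and left-out libraries were alternatives. The members and the 42 gene lists were chosen with earlier results of these data known. Genes named are the largest called changes of at least 20 CPM whose groups do not overlap (up to 10 in each direction), up to 4 of smallest p from each list, and other list members with their values. Libraries of a group differed beyond sampling noise, so none was counted as a duplicate. The tests were checked on simulated data. Some genes are not reported here.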

Additional observations from a re-analysis of the deposited data

Results flagged for a closer look

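The contrast of Rbpj-deleted over control tumours differed between the members and the microglia of the same libraries, by the test of the difference itself (edgeR, members minus microglia, log2 scale), for 26 of the named genes. It was higher in the members for Plat (3.59), Hspb1 (3.34), Actn1 (3.30), Hpgd (3.09), Mgll (3.09), Hes1 (2.55), Rbpms (2.42), Inpp4b (2.39), Stab1 (1.63) and C3ar1 (1.46). For S100a9 the fitted value was 12.90, which depends on the prior count because S100a9 was at 0 in the control members. The contrast was lower in the members for Trim30d (-6.59), Arg1 (-5.32), Dok2 (-3.59), Ass1 (-2.53), Capg (-2.18), Fgr (-2.18), Rsad2 (-1.80), Cybb (-1.78), H2-K2 (-1.77), Ptgs2 (-1.69), Slc16a3 (-1.57), Clec7a (-1.51), Plaur (-1.49), Mif (-1.43) and Pgk1 (-1.39). Of the 38 differences called over all genes, 19 passed without the members that held transcripts of other cells, 8 higher and 11 lower. S100a9, Hes1, Plaur and Pgk1 were among those that did not pass there.

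Some of the flagged genes rest on levels that differ between libraries of 1 group. Arg1, which encodes arginase, was at 4.77 and 75.9 CPM in the members of the Rbpj-deleted libraries and 66.2 and 3.07 CPM in those of the control libraries. Trim30d was at 105 and 85.3 CPM in the members of the Rbpj-deleted libraries and 27.5 and 91.9 CPM in those of the control libraries, while microglia had 79.3 and 76.7 CPM in the Rbpj-deleted libraries and 0.386 and 0.509 CPM in the control libraries.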

How the results depend on the processing

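The share of members differed by -1.53 to 14.4 points when 1 library was left out, and changed sign (-1.53) without Rbpj-deleted library 2. For Rbpj-deleted against control tumours (16 calls), DESeq2 gave 54, no filter on low counts 157, the replicate block 55, all 6 libraries 3, the library split as a batch 0, a stricter rule against other cells 27, and leaving out a library 102 to 457, with a lone library's spread taken from the other groups. With the split as a batch 5 called genes changed sign, uncalled: I830127L07Rik (5.90), S100a9 (-0.53), H2-T22 (-0.99), H2-Eb1 (-0.42) and H2-Ea-ps (-0.85). For control tumours against healthy brain (372) no filter gave 842, the replicate block 453 and leaving out a library 170 to 325. For Rbpj-deleted tumours against healthy brain (403) the values were 903, 491 and 180 to 283. Replicate numbers did not pair the libraries (correlations of deviations 0.133, 0.0785 and -0.0470). Against healthy brain, without endothelial barcodes, Flt1 became 0.81 and Kdr 0.35 and Bsg 0.37 in control tumours, and Flt1 0.20 and Kdr 0.79 in Rbpj-deleted tumours; without all other-cell barcodes Flt1 became 0.87 and Bsg 0.36 in control tumours and Flt1 0.14 in Rbpj-deleted tumours. S100a9 (not called in Rbpj-deleted tumours against healthy brain) ranged from -6.40 to 5.25 over the left-out libraries, positive only without healthy library 2, the one with the neutrophil barcode. The difference between members and microglia (38) was 204 under the stricter rule, 19 without other-cell barcodes and 33 to 225 without a library. The settings that remove endothelial barcodes were chosen after seeing the data. Direction was judged for genes called in 1 of the fits. The causes were not tested. Control library 2, with 20 members, and the healthy libraries limit what low genes can show.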
